A study of Mus musculus with 9 samples.

Results

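The adhesion G protein-coupled receptors of the mouse were described across organoid cultures of the duodenum. They were taken by symbol, as every gene whose name begins with Adgr and a subfamily letter or with Celsr, and came to 29 of the 24505 genes in the nascent transcription table. The family was chosen by the GRO-seq values of Adgrd1, known from earlier work on these data to stand high in RANKL. The levels of Adgrd1 are therefore given as a description without a test. Counts of tested changes and of library overlap between cultures are over the other members. Adgrd1 is included in the H3K27me3 counts and in those of differences between libraries 1 and 2. GRO-seq, which sequences the RNA that polymerases are making at the moment nuclei are isolated, was available for 3 cultures with 2 libraries each. The labels name the cell type as intestinal M cell for RANKL, enterocyte for ENRI and intestinal stem cell for WENRC. ENRI 1 and WENRC 1 came from mouse 1, and ENRI 2 and WENRC 2 from mouse 2, whereas RANKL 1 and RANKL 2 carry no mouse number. H3K27me3, the repressive histone mark laid down by Polycomb complex PRC2, was profiled by ChIP-seq in WENRC with 1 library and in RANKL with 2, which the authors pooled. Strain, genotype, sex, age and the composition of the media are not given in the labels used here, so the culture names are used as they stand.

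Adhesion receptors join a long extracellular part, often built of cell adhesion domains, to a membrane-spanning G protein-coupled receptor. Most cut themselves at a site close to the membrane, and the short stretch exposed by the cut can act as a tethered agonist when the outer part is pulled away by a ligand on a neighbouring cell or in the matrix. Members signal through different G proteins, several of them through cyclic AMP. Adgrd1 couples to Gs and raises cyclic AMP. The Celsr proteins are the cadherin-like members, which organise planar cell polarity, and Adgre5 is found on leukocytes and on gut epithelium.

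The cultures were checked against marker genes. Of the 10 M cell markers, 9 were higher in RANKL than in ENRI and 8 were higher than in WENRC at a limma FDR (adjusted p) under 0.05. Of the 8 stem cell markers, 7 were higher in WENRC than in ENRI, and 8 of 10 enterocyte markers were lower in WENRC than in ENRI. In RANKL, 4 of the 8 stem cell markers (Olfm4, Tnfrsf19, Axin2 and Smoc2) were higher than in ENRI; against WENRC, Tnfrsf19 was higher and Lgr5 was lower. Of the 10 enterocyte markers, 5 were lower in RANKL than in ENRI, and 4 (Apoa1, Sis, Alpi and Anpep) were higher in RANKL than in WENRC. Leukocyte markers summed to between 429 and 657 units (2 to the power of the deposited value, summed over 11 genes) in all 6 libraries, and C1qa, Cd3e, Cx3cr1 and Fcgr1 stayed under the detection filter of log2 10 in every library. Of the 8 endothelial markers, Cdh5, Cldn5, Kdr and Tie1 stayed under it; the sum was 278 to 318 in RANKL, 200.4 to 212 in ENRI and 192 to 250 in WENRC, and Vwf was higher in RANKL than in ENRI (1.23 on the log2 scale, limma FDR 0.0150). Of the 8 mesenchymal markers, 6 stayed under it, collagens Col1a1, Col1a2 and Col3a1 included. The mesenchymal sum was 740 to 773 in RANKL, 335 to 383 in ENRI and 269 to 418 in WENRC, and Pdgfrb was the 1 mesenchymal gene higher in RANKL (2.45 over WENRC on the log2 scale, limma FDR 0.0102). Of the 5 tested enteric neural and glial markers, Ret and S100b were lower in RANKL than in ENRI, and the sum of the 6 listed was 147 to 174 in RANKL, 263 to 360 in ENRI and 211 to 214 in WENRC. The part of these cells in the results below was not tested. In bulk cultures, fewer cells of a type and less RNA per cell cannot be told apart. Per the headers, reads from resequencing were merged in the RANKL libraries alone, so that an effect of this batch and one of the culture cannot be told apart either.

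Adgrd1 was transcribed far more in RANKL than in the other cultures. Its level, as the authors' normalized log2 value over the whole gene, was 13.19 in RANKL 1 and 13.23 in RANKL 2, 6.92 in ENRI 1 and 7.40 in ENRI 2, and 7.45 in WENRC 1 and 6.88 in WENRC 2. The RANKL libraries stood apart from the other 4, and the ENRI and WENRC ranges overlapped. The mean difference was 6.05 (SE 0.25) on the log2 scale from ENRI and 6.05 (SE 0.25) from WENRC. The authors' deposited table gave larger log2 differences for it, 6.80 from ENRI and 6.73 from WENRC. Among the 16563 tested genes this was the fifth largest rise over ENRI and the fourth largest over WENRC. Between WENRC and ENRI the means differed by 0.00 (SE 0.25). Adgrd1 (NM_001081342) lies at chr5:129602625-129710474 on the plus strand of mm9 and overlaps no other gene of the table. Its upstream neighbour Ran, 72.4 kb away on the same strand, had means of 8.21 in RANKL, 7.73 in ENRI and 8.61 in WENRC.

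**Figure D1:**
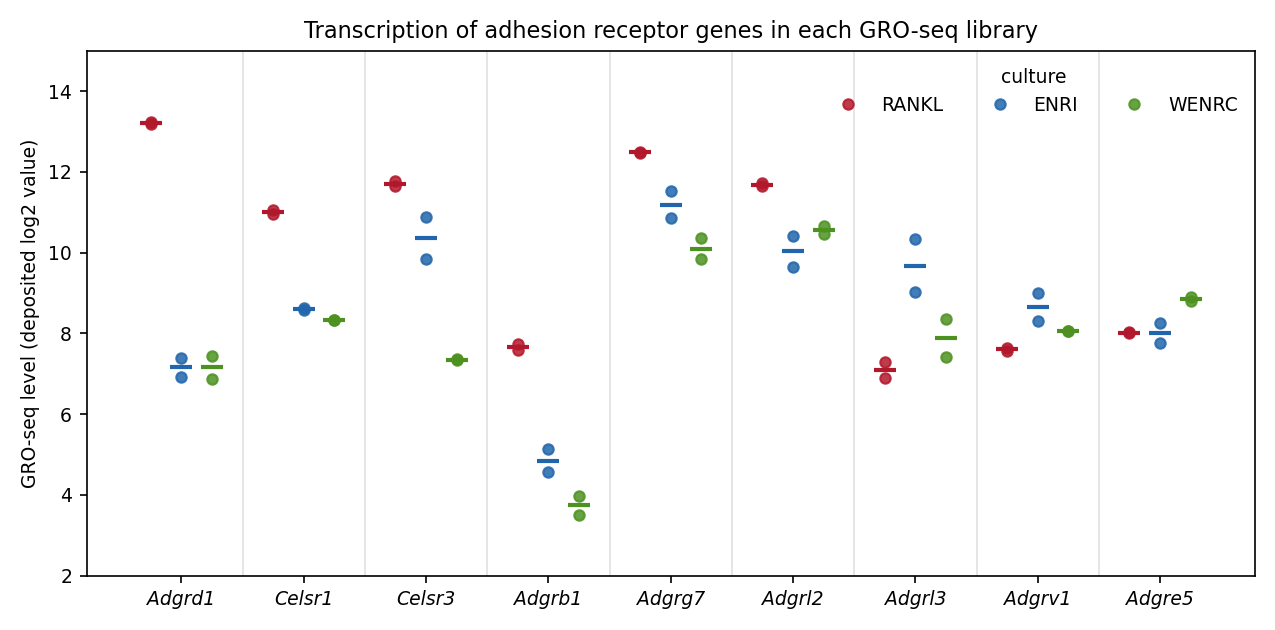
GRO-seq level (authors' normalized log2 value, vertical axis) of Adgrd1 and of the 8 other members that passed the test in at least 1 comparison; each point is 1 library, 2 per culture, and each line the mean of a culture. Adgrd1 sits at 13.19 and 13.23 in RANKL and between 6.88 and 7.45 in the other 4 libraries, and for Celsr1, Celsr3, Adgrb1, Adgrg7 and Adgrl2 both RANKL points lie above all 4 others.

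Of the 26 other tested members, 5 were higher in RANKL than in both other cultures, and the all-gene share called in both is not given here. The 5 were the planar polarity receptors Celsr1 and Celsr3, the engulfment receptor Adgrb1, the gut receptor Adgrg7 and the latrophilin Adgrl2. Both RANKL libraries lay above all 4 others in the same 5 members (19.2%), and in 20.3% of all tested genes. Against ENRI, 7 of the 26 (26.9%) changed at a limma FDR under 0.05, 5 higher and 2 lower in RANKL, where 20.9% of all tested genes did (10.4% higher and 10.5% lower). Against WENRC, 6 of 26 (23.1%) changed, 5 higher and 1 lower, where 12.1% of all genes did (8.53% higher and 3.62% lower). The median change of the 26 was 0.07 against ENRI and 0.11 against WENRC, beside -0.00 and -0.01 for all tested genes. Both comparisons use the same RANKL libraries. The calls rest on having both of them: without RANKL 1 or without RANKL 2, Celsr1 alone was called against ENRI (1 of 26, with 111 and 64 calls among all genes), and 0 of 26 against WENRC (0 of all genes). In these fits the lone RANKL library was assumed to vary like the other groups. The authors' deposited table had 7 of the 26 at an adjusted p under 0.05 against ENRI, beside 19.6% of all tested genes, 7 against WENRC, beside 27.8%, and 3 (Adgrg7, Adgrl3 and Celsr3) in WENRC against ENRI, beside 12.5%.

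**Figure D2:**
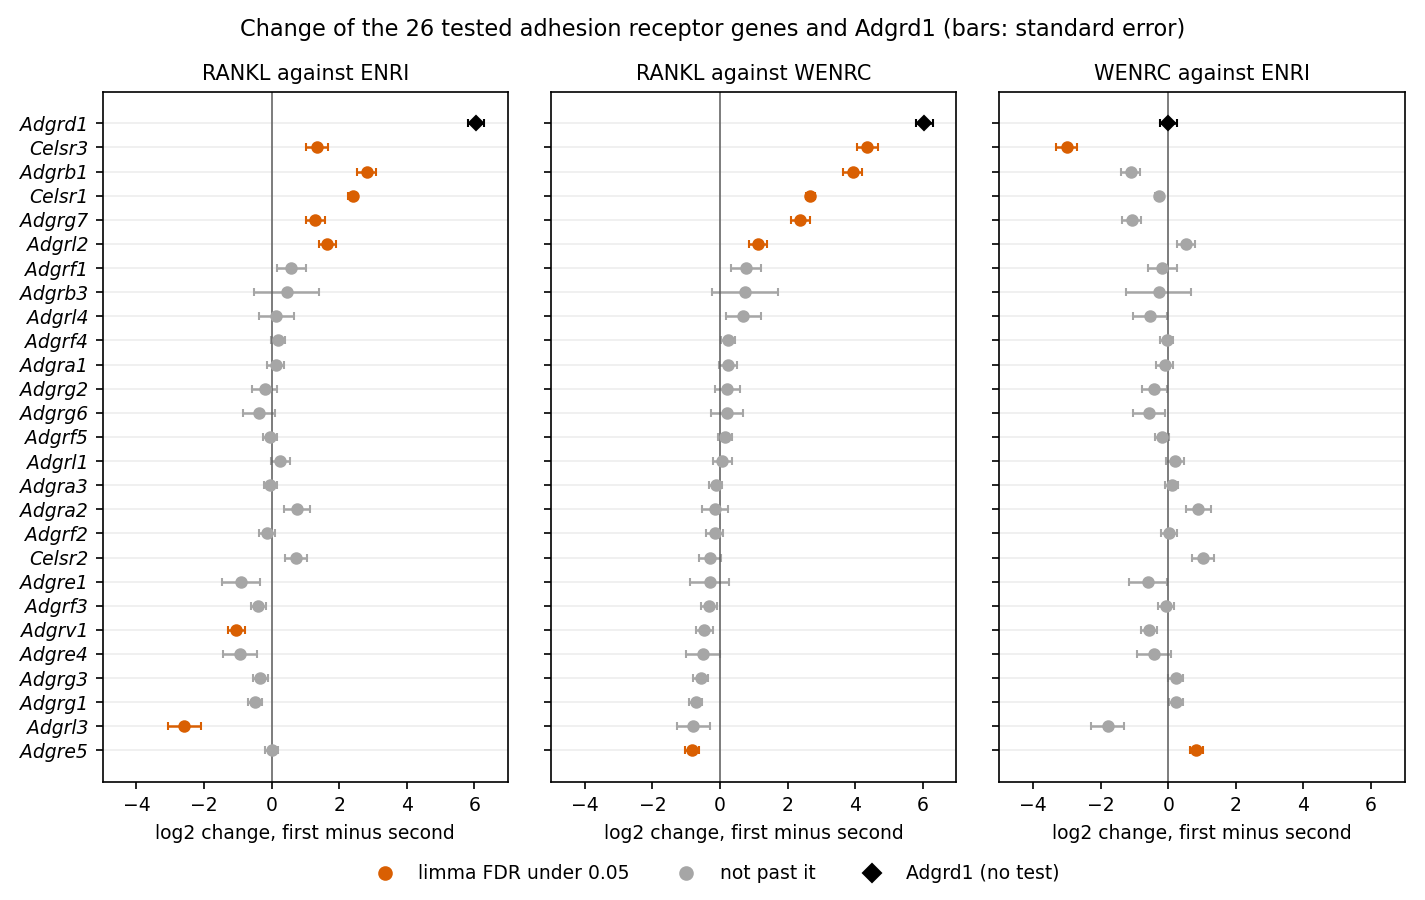
Change of the 26 tested members and of Adgrd1 on the log2 scale (horizontal axis; first-named minus second-named culture; bars are limma standard errors) in the 3 comparisons, ordered by RANKL against WENRC. Orange points passed a limma FDR under 0.05, grey points did not, and Adgrd1 (black diamond, 6.05 in both comparisons with RANKL) was not tested; RANKL against WENRC shares its libraries with the other panels.

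Celsr1, a core component of planar cell polarity in epithelia, had the smallest limma FDR of the members in both comparisons. Its level was 10.95 and 11.06 in RANKL 1 and 2, 8.64 and 8.57 in ENRI 1 and 2, and 8.32 and 8.33 in WENRC 1 and 2. The replicates of each culture lay within 0.11 of each other and RANKL overlapped neither of the other cultures. The rise was 2.40 over ENRI (SE 0.13, limma FDR 0.00104) and 2.68 over WENRC (SE 0.13, limma FDR 0.00123). WENRC and ENRI differed by -0.28 (limma FDR 0.192). Celsr1 (NM_009886) lies at chr15:85729188-85864207 on the minus strand. Trmu, which ends 1.36 kb from it on the opposite strand, had means of 8.29, 7.53 and 7.92 in RANKL, ENRI and WENRC, and the strand handling of the counting is not stated.

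Celsr3, best known from axon guidance, separated all 3 cultures. It had 11.66 and 11.76 in RANKL 1 and 2, 9.84 and 10.87 in ENRI 1 and 2, and 7.35 and 7.34 in WENRC 1 and 2, with no overlap between any pair of cultures. RANKL exceeded WENRC by 4.37 (SE 0.32, limma FDR 0.00203) and ENRI by 1.35 (SE 0.32, limma FDR 0.0334). The change of WENRC against ENRI was -3.01 on the log2 scale (SE 0.32, limma FDR 0.00915). With only the 4 RANKL and ENRI libraries in the fit, the rise over ENRI had a limma FDR of 0.0794, and without WENRC 1 or WENRC 2 it was 0.0795 and 0.0789. Celsr3 (NM_080437) lies at chr9:108728651-108755300 on the plus strand. Slc26a6, an anion exchanger gene that starts 1.07 kb past its end on the same strand, had means of 9.57 in RANKL, 10.29 in ENRI and 7.68 in WENRC. Slc26a6 was thus also low in WENRC, but unlike Celsr3 its mean was not highest in RANKL. Nckipsd, 7.95 kb upstream, had 6.40, 6.22 and 6.38.

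The third cadherin-like member, Celsr2, passed no comparison. It had 6.10 and 6.20 in RANKL, 5.90 and 4.97 in ENRI, and 6.52 and 6.39 in WENRC, so its lowest value was ENRI 2 and its highest values were in WENRC.

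Adgrb1, a receptor for phosphatidylserine on dying cells that works with Elmo1 and Dock1, was low outside RANKL. Its level was 7.74 and 7.60 in RANKL 1 and 2, 4.56 and 5.14 in ENRI 1 and 2, and 3.51 and 3.98 in WENRC 1 and 2. The 3 cultures did not overlap, and WENRC was lowest. The rise was 2.82 over ENRI (SE 0.28, limma FDR 0.00357) and 3.93 over WENRC (SE 0.28, limma FDR 0.00185). WENRC and ENRI differed by -1.11 (limma FDR 0.0504), just outside the threshold. The authors' deposited table gave larger log2 changes for this low gene, 3.91 over ENRI and 6.98 over WENRC. Elmo1 and Dock1 passed none of the comparisons, with changes of -0.19 and -0.36 in RANKL against WENRC. Adgrb1 (NM_174991) lies at chr15:74346626-74419894. The brain receptor Adgrb2 was under the filter in every library (2.67 to 3.09) and was not tested. Adgrb3, a receptor for C1q-like proteins at synapses, ranged from 5.06 in ENRI 1 to 7.74 in ENRI 2 and from 5.19 in WENRC 1 to 7.04 in WENRC 2, spreads within these cultures wider than any difference between culture means. Gm20172 lies within Adgrb3 on the same strand.

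Adgrg7, an orphan receptor known from the intestine, was the member with the second highest level per length in ENRI and WENRC. It had 12.48 in both RANKL libraries, 10.85 and 11.52 in ENRI 1 and 2, and 10.37 and 9.84 in WENRC 1 and 2. The cultures did not overlap, in the order RANKL, ENRI, WENRC. The rise in RANKL was 1.30 over ENRI (SE 0.28, limma FDR 0.0258) and 2.38 over WENRC (SE 0.28, limma FDR 0.00717). Without WENRC 2 the limma FDR of the rise over WENRC was 0.0620. The change of WENRC against ENRI was -1.08, with a limma FDR of 0.0522. Adgrg7 (NM_172825) lies at chr16:56724722-56795971, and the next gene downstream, Tfg, was highest in ENRI (means of 10.37, 11.47 and 9.67 in RANKL, ENRI and WENRC).

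Among the latrophilins, receptors for teneurins and FLRT proteins, Adgrl2 rose in RANKL and Adgrl3 fell against ENRI. Adgrl2 had 11.66 and 11.71 in RANKL 1 and 2, 10.42 and 9.64 in ENRI 1 and 2, and 10.45 and 10.67 in WENRC 1 and 2. RANKL overlapped neither culture, and the change was 1.65 over ENRI (SE 0.26, limma FDR 0.0118). Over WENRC it was 1.12 (SE 0.26, limma FDR 0.0461), which moved to 0.114 under quantile normalization, 0.0560 with upper-quartile recentring, 0.0563 with no filter, and 0.0675 with the replicate number as a block. Without WENRC 1 or WENRC 2 it was 0.220 and 0.174. Adgrl2 (NM_001081298) lies at chr3:148478550-148617599.

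Adgrl3 had 7.29 and 6.91 in RANKL 1 and 2, 10.34 and 9.02 in ENRI 1 and 2, and 7.41 and 8.35 in WENRC 1 and 2. It was highest in ENRI, and RANKL was the lowest culture without overlap. It fell by 2.58 on the log2 scale against ENRI (SE 0.50, limma FDR 0.0193), whereas the change against WENRC was -0.79 (limma FDR 0.353) and that of WENRC against ENRI -1.80 (limma FDR 0.0625). At chr5:81449596-82224912 (NM_001347368) it is the longest member, 775 kb, so its summed value is spread over many bases. Adgrl1 did not pass any comparison (6.63 and 6.82 in RANKL, 6.83 and 6.10 in ENRI, 6.73 and 6.59 in WENRC). Adgrl4, an endothelial receptor, ranged from 3.60 in WENRC 1 to 5.24 in ENRI 2 and did not pass either.

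Adgrv1, the giant receptor of hair cell ankle links that is mutated in Usher syndrome, was highest in ENRI. It had 7.65 and 7.57 in RANKL 1 and 2, 8.30 and 8.99 in ENRI 1 and 2, and 8.07 and 8.06 in WENRC 1 and 2. RANKL lay below all 4 other libraries, and the fall against ENRI was -1.04 (SE 0.24, limma FDR 0.0326). The limma FDR was 0.0784 with the 4 RANKL and ENRI libraries alone, 0.0785 without WENRC 1 and 0.0778 without WENRC 2. Against WENRC the change was -0.46 (limma FDR 0.273). Adgrv1 (NM_054053) lies at chr13:81234067-81772143.

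Adgre5, whose ligand is the complement regulator Cd55, was highest in WENRC. It had 8.04 and 8.01 in RANKL 1 and 2, 8.26 and 7.77 in ENRI 1 and 2, and 8.79 and 8.90 in WENRC 1 and 2. Both WENRC libraries lay above the other 4. The change of RANKL against WENRC was -0.83 (SE 0.20, limma FDR 0.0485) and that of WENRC against ENRI 0.83 (SE 0.20, limma FDR 0.0435), close to the threshold. With the replicate number as a block the limma FDRs were 0.0743 and 0.0661. Without any 1 of the RANKL or WENRC libraries they lay between 0.127 and 0.295. Adgre5 (NM_011925, chr8:86247150-86265210) overlaps Ddx39 on the opposite strand by 100 bases, and Ddx39 was also highest in WENRC (means of 8.45 in RANKL, 8.36 in ENRI and 8.82 in WENRC). Reads of the overlap cannot be assigned without strand. The microRNA gene Mir1668 lies within it.

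Adgre1 and Adgre4 are receptors of macrophages and other myeloid cells. Adgre1 had 4.45 and 3.94 in RANKL, 4.31 and 5.88 in ENRI, and 4.04 and 4.96 in WENRC. Adgre4 had 4.43 and 4.40 in RANKL, 4.62 and 6.08 in ENRI, and 4.54 and 5.30 in WENRC. Both were low, both were highest in ENRI 2, and neither passed a comparison (Adgre1 changed by -0.90 against ENRI, SE 0.57, limma FDR 0.304).

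Adgrg1, which binds collagen III and transglutaminase 2, was the member nearest to the threshold in RANKL against WENRC among those not past it. It had 8.39 and 8.47 in RANKL 1 and 2, 9.18 and 8.65 in ENRI 1 and 2, and 9.20 and 9.09 in WENRC 1 and 2. RANKL lay below all 4 other libraries, with changes of -0.49 against ENRI (SE 0.20, limma FDR 0.137) and -0.72 against WENRC (SE 0.20, limma FDR 0.0719). The fit of the 4 RANKL and WENRC libraries alone, in which 31.4% of all tested genes passed, gave a limma FDR of 0.00392. The authors' deposited adjusted p was 0.000511. Over the 12 alternative fits of RANKL against WENRC, Adgrg1 was called in 5. Its neighbour Adgrg3, a receptor of granulocytes that starts 3.48 kb past the end of Adgrg1 on the same strand, had the same order of culture means at a lower level (4.66 and 4.64 in RANKL, 5.22 and 4.75 in ENRI, 5.13 and 5.29 in WENRC). Adgrg5, upstream in the same cluster, was under the filter in every library (1.23 to 1.44) and was not tested. Adgrg6, known from Schwann cell myelination, and Adgrg2, from the epididymis, passed no comparison. Adgrg6 spanned 7.15 to 8.69 in ENRI alone, and Adgrg2 ranged from 4.09 to 5.29 over all libraries.

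The remaining members, Adgra1 to Adgra3 and Adgrf1 to Adgrf5, passed no comparison. Adgra3 was high in every library (10.31 and 10.20 in RANKL, 10.34 and 10.24 in ENRI, 10.62 and 10.15 in WENRC). Adgra2, a Wnt7 coreceptor of brain vessels, lay between 5.55 in ENRI 2 and 7.06, and Adgra1 between 3.05 and 3.66. Adgrf3 lay between 6.66 and 7.34. The 4 genes Adgrf1, Adgrf2, Adgrf4 and Adgrf5, neighbours on chromosome 17, were low: Adgrf1 ranged from 3.70 to 5.08, Adgrf2 from 4.38 to 4.98, Adgrf4 from 3.68 to 4.12 and Adgrf5, the lung surfactant regulator, from 3.38 to 3.88.

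Counted by the overlap of libraries, the shares of members were near or below those of all genes. Both RANKL libraries lay above all 4 others in 5 of 26 members (19.2%) and in 20.3% of all tested genes, and below all 4 in 5 of 26 (19.2%; Adgre4, Adgrg1, Adgrg3, Adgrl3 and Adgrv1) and in 16.9% of all genes. The RANKL and ENRI libraries did not overlap in 12 of 26 members (6 higher and 6 lower in RANKL), against 64.7% of all genes (32.4% higher and 32.3% lower). The RANKL and WENRC libraries did not overlap in 17 of 26 (9 higher and 8 lower in RANKL), against 68.6% (34.1% and 34.5%). Between WENRC and ENRI, 2 of 26 members (7.69%) passed the test, Adgre5 higher and Celsr3 lower in WENRC, where 14.6% of all genes did (4.85% higher and 9.74% lower), and their libraries did not overlap in 10 of 26, against 58.5% of all genes. The median change of the 26 was -0.19 and that of all genes -0.01. Over the 13 alternative fits of WENRC against ENRI, the change of Adgre5 lay between 0.59 and 1.08, with a call in 5. That of Celsr3 lay between -3.53 and -2.50, with a call in 8.

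Per kilobase of gene, the order of the members changed between the cultures. The measure is the deposited log2 value minus the log2 of the gene length in kb, and compares levels between genes. In RANKL the highest were Celsr3 (6.98), Adgrd1 (6.46), Adgrg7 (6.33), Adgrl2 (4.57) and Celsr1 (3.93). In ENRI they were Celsr3 (5.62), Adgrg7 (5.03), Adgre5 (3.84), Adgrg1 (3.70) and Adgra3 (3.66). In WENRC they were Adgre5 (4.67), Adgrg7 (3.95), Adgrg1 (3.93), Adgra3 (3.75) and Adgrf3 (3.50). Adgrd1 and Adgrg7 were neighbours in the RANKL order by 0.13, with Adgrd1 at 6.44 and 6.47 and Adgrg7 at 6.33 and 6.32. In ENRI and in WENRC Adgrd1 was the 13th of the 29 members, at 0.41 in both. Adgre5 and Adgrl3 show how far the length matters: Adgrl3 exceeded Adgre5 in the summed ENRI value, and lay at 0.08 per kilobase in ENRI.

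RefSeq promoter sequences (GRCm38.p6) were found for 21 of the 29 genes, with 25 start sites. They are printed for Celsr3, Adgrg7 and Adgrl2, which are those of the 5 members higher in RANKL that the table holds, and for Adgrl1, a member whose transcription passed no comparison and whose start lies in an H3K27me3 region described below. Each is the 250 bases before the start site, on the gene's own strand, and capitals mark AGGAAG or its reverse complement, the core recognised by Ets factors such as the M cell factor Spib.
Celsr3 (chr9:108825795-108826044, plus strand): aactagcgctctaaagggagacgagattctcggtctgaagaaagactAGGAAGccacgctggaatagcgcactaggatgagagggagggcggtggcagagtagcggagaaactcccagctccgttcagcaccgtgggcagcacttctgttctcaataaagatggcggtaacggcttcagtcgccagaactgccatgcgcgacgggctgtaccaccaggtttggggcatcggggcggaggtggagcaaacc
Adgrg7 (chr16:56795859-56796108, minus strand): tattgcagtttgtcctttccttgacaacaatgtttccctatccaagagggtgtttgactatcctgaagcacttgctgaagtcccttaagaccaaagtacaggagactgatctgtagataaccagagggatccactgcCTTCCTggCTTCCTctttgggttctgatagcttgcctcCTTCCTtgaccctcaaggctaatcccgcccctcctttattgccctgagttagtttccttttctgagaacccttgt
Adgrl2 (chr3:148954636-148954885, minus strand): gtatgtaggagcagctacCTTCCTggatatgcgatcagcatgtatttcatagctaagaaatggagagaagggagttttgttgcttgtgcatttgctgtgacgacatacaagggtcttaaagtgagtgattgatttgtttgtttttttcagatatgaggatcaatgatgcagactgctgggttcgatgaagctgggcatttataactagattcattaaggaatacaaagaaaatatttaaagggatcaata
Adgrl1 (chr8:83899848-83900097, plus strand): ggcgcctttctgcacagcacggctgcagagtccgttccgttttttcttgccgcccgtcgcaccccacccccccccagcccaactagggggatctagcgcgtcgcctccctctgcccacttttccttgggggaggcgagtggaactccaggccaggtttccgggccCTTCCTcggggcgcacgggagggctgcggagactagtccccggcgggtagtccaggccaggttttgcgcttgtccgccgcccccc
The Adgrg7 stretch held 3 Ets cores and 1 CpG, the Celsr3 stretch 1 Ets core and 17 CpG, the Adgrl2 stretch 1 Ets core and 3 CpG, and the Adgrl1 stretch 1 Ets core and 21 CpG. The 25 start sites, 3 of them of Adgrl3, held a median of 11 CpG per 250 bases, from 1 at Adgrg7 to 36 at Adgrl3, beside a median of 6 over all 32851 promoters. The Ets core was in 9 of the 25 member promoters and in 29.5% of all promoters, on either strand. TCAAGGTCA, the extended half-site of Esrrg, was in 0 of 25 and in 0.387% of all, and GGGANTTCC, a form of the NF-kB site, in 0 of 25 and in 1.43% of all. The marked letters do not overlap one another.

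Genes that act with these receptors were followed through 3 lists drawn from general knowledge. Of 39 ligands and partners, 34 were tested: 3 were higher and 3 lower in RANKL than in ENRI, and 4 higher and 2 lower than in WENRC, with medians of 0.05 and -0.13. For all tested genes the shares were 10.4% and 10.5% against ENRI, and 8.53% and 3.62% against WENRC. Prnp, the prion protein and a ligand of Adgrg6, had 9.42 and 9.68 in RANKL, 6.64 and 5.54 in ENRI, and 6.78 and 6.93 in WENRC. It rose by 3.46 over ENRI (limma FDR 0.00384) and 2.70 over WENRC (limma FDR 0.00961). The teneurins, which bind latrophilins, rose in part: Tenm3 changed by 2.40 (limma FDR 0.0304) and Tenm1 by 2.23 (limma FDR 0.0162) in RANKL against WENRC, while against ENRI they had 1.36 (limma FDR 0.0990) and 0.62 (limma FDR 0.270). Flrt3, the other kind of latrophilin ligand, went the opposite way, at 7.41 and 7.27 in RANKL, 9.81 and 9.35 in ENRI, and 8.93 and 9.21 in WENRC. Its change was -2.24 against ENRI (limma FDR 0.00312) and -1.73 against WENRC (limma FDR 0.00727). Fzd3, a partner of Celsr proteins in planar polarity, changed by -1.49 against WENRC (limma FDR 0.0491) and by -1.33 against ENRI (limma FDR 0.0485). Vangl2, another planar polarity partner, named after its values were seen, rose by 1.29 over ENRI (limma FDR 0.0134) and had 0.63 against WENRC (limma FDR 0.117). Vangl1, Fzd6, Prickle1, Prickle2 and Dvl1 to Dvl3, also listed, passed no comparison. Tgm2 (1.06, limma FDR 0.0148) and Unc5c (-1.44, limma FDR 0.0212) passed against ENRI but not against WENRC, and were likewise added after their values were seen. Cd55, the ligand of Adgre5, was higher in RANKL than in WENRC by 1.27 (limma FDR 0.0149), where Adgre5 itself was lower. Against ENRI, Cd55 changed by -0.15 in RANKL (limma FDR 0.625) and by -1.42 in WENRC (limma FDR 0.0135).

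Of the 14 G protein alpha subunits, 13 were tested, and 0 passed in RANKL against ENRI by limma, beside 20.9% of all tested genes. At an unadjusted limma p under 0.05 there were 6, and the all-gene share at that limit is not given here. Gnal, a stimulatory subunit, was higher in RANKL than in WENRC by 0.66 (limma FDR 0.0285), and Gna11, Gnai3 and Gnal were lower in WENRC than in ENRI. Of the 10 listed effectors of G proteins, adenylyl cyclases among them, 3 were higher and 1 lower in RANKL than in ENRI, and 3 were higher than in WENRC. The 3 were the cyclases Adcy5, Adcy6 and Adcy9 in both comparisons, with changes over WENRC of 1.17, 0.86 and 0.99 (limma FDRs 0.0121, 0.0194 and 0.0158), and Adcy4 changed by -1.76 against ENRI (limma FDR 0.00586). In WENRC against ENRI, Adcy3 was higher and Adcy4 lower. These genes were singled out after their values were seen.

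H3K27me3 differed between RANKL and WENRC at many members. The authors called regions of each culture against the other, so their fold and p-value chose the regions and the values here are descriptions without a replicate check. Of 35798 regions higher in RANKL, 95 were named for 18 of the 29 members (62.1% of members, against 33.7% of all genes). Of 13607 regions higher in WENRC, 52 were named for 15 members (51.7%, against 24.0%). Members are long, with a median of 70.1 kb beside 14.0 kb for all genes. Among genes of at least 50 kb, 10 of 16 members had a region higher in RANKL, against 47.4% of all such genes, and 11 of 16 had one higher in WENRC, against 40.8%. Within 5 kb of a start site the shares were 12 of 29 members against 19.1% of all genes for RANKL, and 5 of 29 against 5.44% for WENRC. Regions overlapped the gene itself in 15 of 29 members against 20.7% of all genes for RANKL, and in 10 of 29 against 9.82% for WENRC. The lengths of members and their start-site CpG differ from those of all genes, and the part of either was not tested. Folds of the member regions were like those of the whole tables, with a median of 2.84 beside 2.92 for RANKL and 3.34 beside 3.30 for WENRC. The members just inside the authors' limit had folds of 2.04 and 2.13, and regions below the limit are not in the tables.

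**Figure D3:**
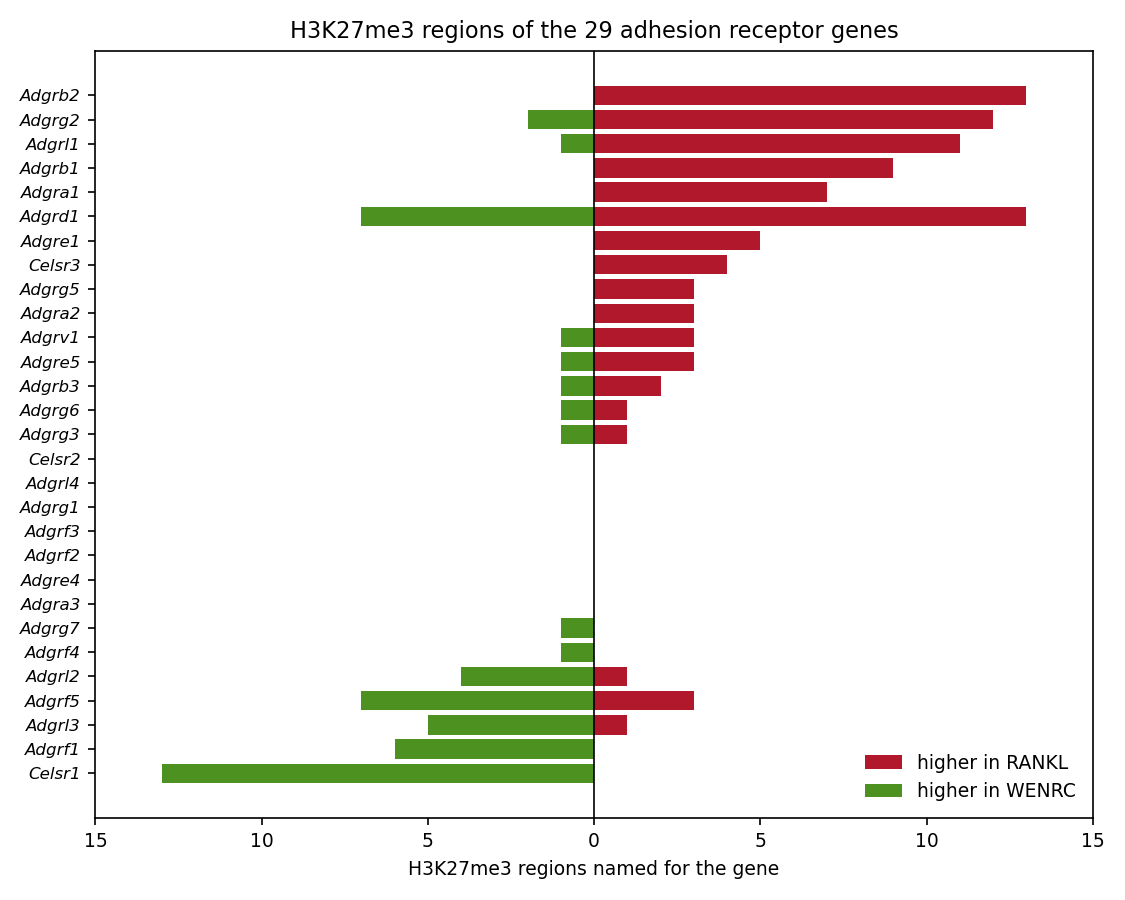
Number of H3K27me3 regions named for each of the 29 members (horizontal axis), red to the right where the authors called them higher in RANKL and green to the left where higher in WENRC. Celsr1 has 13 regions in WENRC and 0 in RANKL, Adgrb2 has 13 in RANKL and 0 in WENRC, Adgrd1 has both kinds, and 7 members have none.

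Adgrd1 held regions of both kinds in separate places. All 7 regions higher in WENRC lay in introns of the gene, from intron 2 to intron 19 of 25, the nearest 3.39 kb after the start. Over their 5.44 kb the WENRC library had 191.7 tags after scaling to the RANKL depth and pooled RANKL had 58, or 35.2 and 10.7 tags per kb, with folds of 2.87 to 4.14. Of the 13 regions higher in RANKL, 12 lay past the end of the gene, from 5.84 to 77.4 kb beyond it, and 1 lay upstream, at -35.5 kb from the start. Over the 13.0 kb of those 12, RANKL had 574 tags and WENRC 183.6, or 44.2 and 14.1 tags per kb. The called regions inside the gene were thus of one direction and those past its end of the other, while stretches of the gene outside these regions are not in the tables. The region nearest the end, at chr5:129716316-129716816, had the largest fold, 10, from 18 RANKL tags against 2 unscaled WENRC tags (95% exact interval 2.39 to 88.9, counting error only). The interval makes no allowance for the choice of the region by its fold and p-value. No listed gene lies between the end of Adgrd1 and these regions. The next, Sfswap, starts 297 kb past the end and had means of 10.93, 10.30 and 10.54 in RANKL, ENRI and WENRC.

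**Figure D4:**
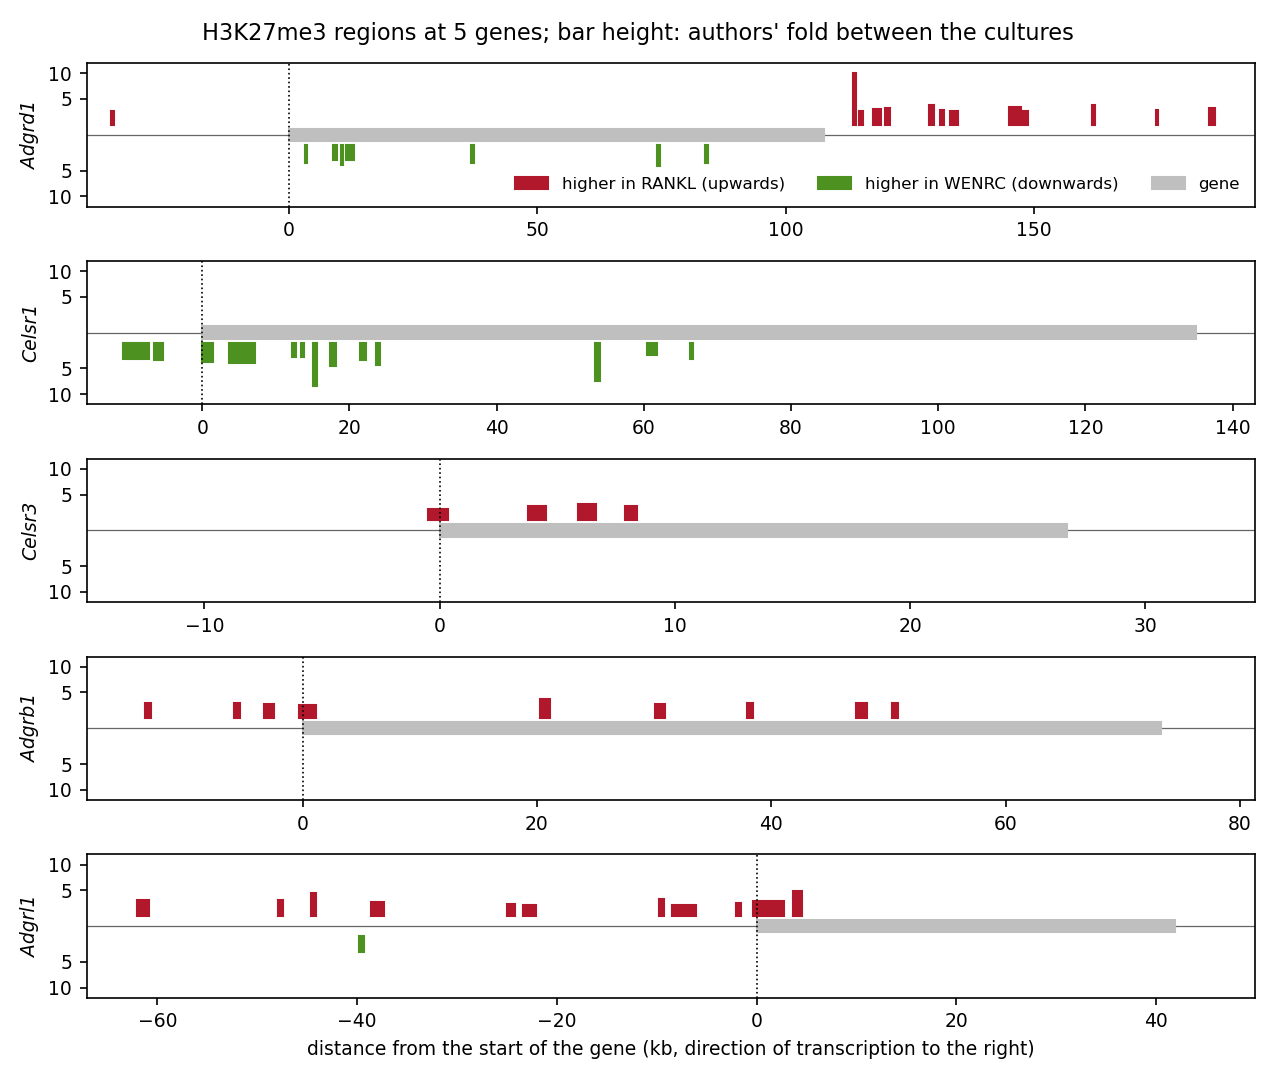
H3K27me3 regions at Adgrd1, Celsr1, Celsr3, Adgrb1 and Adgrl1 by distance from the gene's start in kb (horizontal axis, drawn to scale within each panel); grey bars are the genes, and the height of a bar above or below the grey band is the authors' fold. At Adgrd1 the 7 green regions (higher in WENRC) lie in the gene and 12 of 13 red ones (higher in RANKL) past its end, at Celsr1 all 13 are green, and at Celsr3 and Adgrb1 all are red.

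At Celsr1 every region named for the gene was higher in WENRC. Of these 13, 11 lay in the gene and 2 upstream of it; counting regions that carry another gene's name, 14 overlapped the gene. Over 15.8 kb WENRC had 635.4 scaled tags and RANKL 181, or 40.3 and 11.5 tags per kb. One region covered exon 1 (chr15:85862700-85864183, 82.8 against 22 tags, fold 3.76), and a longer one lay in intron 1 (chr15:85857076-85860536, 119.7 against 30 tags, fold 3.99). The folds of 8.4 and 7.5, the largest 2, rest on 3 RANKL tags each (95% exact intervals 2.59 to 43.2 and 2.29 to 38.8, counting error only). These intervals make no allowance for the choice of the regions by fold and p-value.

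At Celsr3 and Adgrb1, transcription and the mark were both higher in RANKL. Celsr3 had 4 regions, all in the first 10 kb of the gene and all higher in RANKL, with 219 tags against 86.4 (77.1 and 30.4 per kb). The first covered the 5' UTR at chr9:108728175-108729005, with 90 tags in RANKL and 41.4 in WENRC, a fold of 2.17. Adgrb1 had 9 regions, each with more tags in RANKL, 6 in the gene and 3 upstream; counting regions that carry another gene's name, 10 overlapped the gene. Its 5' UTR region at chr15:74346341-74347752 had 160 tags against 61.2, a fold of 2.61. Of the 5 members higher in RANKL than in WENRC, Celsr1 thus had a region higher in WENRC within 5 kb of its start, Celsr3 and Adgrb1 had regions higher in RANKL there, and Adgrg7 and Adgrl2 had none of either kind. The single region named for Adgrg7 lay upstream at -40.1 kb from its start, in an intron of another gene. Adgrl2 had 1 region higher in RANKL and 4 higher in WENRC, all outside the gene. Adgre5, lower in RANKL, had 3 and 1, all upstream by more than 5 kb.

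Members that passed no comparison of transcription carried regions as well, as did Adgrl3 and Adgrv1. Adgrb2, which was under the filter, had 13 regions higher in RANKL (974 tags against 395, 70.6 and 28.6 per kb). Adgrl1 had 11, one of them over its start (chr8:86423597-86426760, 238 tags against 81, fold 2.94), and 1 higher in WENRC. Adgrg2 on chromosome X had 12 higher in RANKL and 2 higher in WENRC, and Adgra1 had 7 higher in RANKL. Adgre1 had 5, Adgra2 3 and Adgrg5 3, all higher in RANKL. Adgrf1 had 6 regions and Adgrf4 had 1, all higher in WENRC. Both kinds were found at Adgrf5 (3 higher in RANKL, 7 in WENRC), Adgrl3 (1 and 5), Adgrv1 (3 and 1), Adgrb3 (2 and 1), Adgrg3 (1 and 1) and Adgrg6 (1 and 1). At Adgrl3, whose transcription was lowest in RANKL, the single region higher in RANKL ended at the start site (chr5:81449096-81449596, 37 against 12.6 tags). At Adgrg6 the region higher in RANKL covered the start (chr10:14263417-14266547, 178 against 78.3 tags). No region of either kind was named for Adgra3, Adgre4, Adgrf2, Adgrf3, Adgrg1, Adgrl4 and Celsr2.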

How the data were processed

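GRO-seq values are log2 values as deposited by the authors. Per the file headers, reads were summed over whole RefSeq genes of mm9 with HOMER, keeping 1 transcript per gene, and compared between cultures; the submitters' processing notes name Bowtie2 (version 2.3.4.1), HOMER and DESeq2. The values have the shape of a regularized logarithm, inferred from the values, which draws low genes together. Read filters and strand handling are not given in the sources used here, and the GRO-seq depth is unknown. The authors' deposited table also holds, per pair of cultures, a log2 fold change with its p-value before and after adjustment. For H3K27me3, per the file headers, the authors called regions of one culture with the other as control. RANKL tags are counts as deposited; WENRC tags are a deposited signal, scaled by 0.9 to the RANKL depth by the authors; the fold is the deposited ratio of the 2. Blank rows (12) were dropped.

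All 6 GRO-seq libraries entered 1 limma fit (version 3.58.1, R 4.3.3, variance trend, 3 group means) over the 16563 genes with at least 2 libraries at a value of log2 of 10. Two-sided p-values were adjusted by Benjamini-Hochberg over all genes, with calls at an FDR under 0.05. Of the 29 members, 27 passed this filter (not Adgrb2 and Adgrg5), 0 of them through 1 culture only; 26 were tested and Adgrd1 was only described. Errors are limma standard errors, and nothing in the labels says that the 2 RANKL libraries came from separate animals, so p-values measure the spread between these libraries. The fit was checked on simulated data. For ENRI and WENRC the replicate number is the mouse in the labels, and differences between libraries 2 and 1 correlated across genes at 0.41; for RANKL it is not, with -0.20 against ENRI and -0.32 against WENRC. The members, partner lists and marker lists were chosen with earlier results of these data known. Every member is named, with full statistics for those called at least once and for Adgrd1, Adgrg1, Adgrl2, Celsr1 and Adgre1. By plan, partners were named where called, at most 6, by the size of the change in RANKL against WENRC. Vangl2, Tgm2 and Unc5c were added after their values were seen. Elmo1, Dock1 and planar polarity partners that passed no comparison were named beside them or beside Adgrb1. The planned search for the cleavage site in the proteins was not done, as no protein table was used here. Promoters are from RefSeq, and coordinates of genes and regions are mm9 as deposited.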

Additional observations from a re-analysis of the deposited data

How the results depend on the processing

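Each limma comparison set 2 libraries against 2, or 2 against 1 on leaving out 1 of them, and no depth is known for them. Of the 15 member results that passed the threshold, 0 changed direction under any alternative run and 14 lost the call under at least 1; of the 63 that did not, 22 passed it under at least 1 and 31 changed sign under at least 1. The cause was not tested. The 7 calls in RANKL against ENRI became 2 at an FDR under 0.01 and 1 to 12 on leaving out 1 library (1 without RANKL 1 or RANKL 2, beside 0.67% and 0.386% of all genes, and 12 without ENRI 1, beside 42.1%). The 6 in RANKL against WENRC became 8 of 26 with only the 4 libraries compared, beside 31.4% of all genes. They became fewer on leaving out any 1 RANKL or WENRC library, where the calls among all genes also fell. The 2 calls in WENRC against ENRI became more on leaving out either ENRI library, as did the calls among all genes. Both became fewer on leaving out any other library. The 2 calls became 0 with only the 4 libraries compared, with 0 of all genes. At an unadjusted limma p under 0.05 that fit had 6, and the all-gene share at that limit is not given here. With no filter there was 1 call, beside 8.55% of all genes, and with the stricter filter 4 of 25, beside 15.8%. At an FDR under 0.01 there was 1, and all-gene shares at that FDR are not given here. Over the 13 alternative fits, leaving out 1 library included, the call of Adgre5 held in 5 and that of Celsr3 in 8. With the replicate number as a block, which pairs ENRI and WENRC by mouse, WENRC against ENRI had 1 call, also with only those 4 libraries; the block ended the calls of Adgre5 and of Adgrl2 against WENRC and changed no other. Upper-quartile recentring moved the median of all genes in RANKL against WENRC to -0.12. The 95 regions higher in RANKL became 8 at a fold of at least 4, and the 52 higher in WENRC became 13. The shares of all regions at that fold are not given here. Within 5 kb of a start lay 24 of the 95 (25.3%, beside 21.2% of all regions higher in RANKL). For WENRC it was 8 of the 52 (15.4%, beside 11.7%). By overlap with the gene in place of the name there were 55 higher in RANKL, those named for other genes included. Of the 95, 41 lay in their gene. The median level of the members in RANKL was -0.14 per kilobase and 6.78 without length scaling.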

Other observations

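Low-level members were mostly higher in library 2 than in library 1 of ENRI and WENRC. Of the 10 members with a mean value between 3 and 5, 9 were higher in ENRI 2 than in ENRI 1 and 10 were higher in WENRC 2 than in WENRC 1, with median differences of 0.70 and 0.52 on the log2 scale. Among the 2581 genes at the same level, 66.3% and 74.8% were higher in library 2, with medians of 0.22 and 0.19. In RANKL, whose numbers are not mouse numbers, 2 of the 10 were higher in library 2, beside 38.1% of the genes at that level. In ENRI and WENRC, an effect of the mouse and one of the library cannot be told apart. Of the 7 members with a mean between 5 and 8, 2 were higher in ENRI 2 and 4 in WENRC 2, beside 47.0% and 42.4% of all genes at that level. Of the 10 with a mean of at least 8, 4 were higher in ENRI 2 and 4 in WENRC 2, beside 43.4% and 17.7%.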
